A study of Mus musculus with 1 sample.

Results

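The 10 genes described here are well-known autosomal, nonimprinted long noncoding RNAs (lncRNAs), namely Malat1, Neat1, Miat, Pvt1, Gas5, Snhg1, Snhg12, Rmst, Dancr and Tug1. They were chosen by name, and each matched 1 row of the table, so that 10 of 23282 rows make up the set. The library came from mixed glia of the ventral midbrain (VM) of outbred ICR(CD-1) mouse pups at postnatal day 5, passaged once the flasks were nearly confluent. The label placed it in the control group, for which the study used the vehicle DMSO. The study asked how inhibition of serum/glucocorticoid related kinase 1 (SGK1) changes such glia. Libraries of inhibitor-treated glia were not analyzed here, so each value below is the level in 1 control library, with no replicate, no error between cultures and no test. How many pups were pooled for the culture was not stated.

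A lncRNA is a transcript that is not translated and acts, where it is known to act, as RNA or through its transcription. Malat1 and Neat1 are nuclear. Malat1 gathers in nuclear speckles, where splicing factors are stored, and Neat1 is the scaffold on which paraspeckles are built. A further group of lncRNAs carries small nucleolar RNAs (snoRNAs) in introns. The snoRNAs are cut out and guide the chemical modification of ribosomal RNA, while the spliced host transcript is often removed by nonsense-mediated decay. Gas5 belongs to that group and is also known to bind the glucocorticoid receptor, the factor through which glucocorticoids switch on Sgk1.

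The 3′ ends of Malat1 and Neat1 are shown first, because both RNAs are known to be cut there without a conventional poly(A) tail and to protect the end in a triple helix of U-rich and A-rich stretches. Capitals mark the motifs TTTCTTTT and AAAAGCAAAA, the latter being the last 10 bases of the long Neat1 transcript, which were chosen after the sequences were read and were searched on the transcript strand. The sequences are from GENCODE release M21 transcripts on the GRCm38 build, 5′ to 3′, and both lie on the minus strand of chromosome 19, at chr19:5795922-5796070 for Malat1 and chr19:5824708-5824802 for Neat1.
Malat1: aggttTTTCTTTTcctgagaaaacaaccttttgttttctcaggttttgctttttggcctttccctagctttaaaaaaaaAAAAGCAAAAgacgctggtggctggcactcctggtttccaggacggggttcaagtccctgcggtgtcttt
Neat1: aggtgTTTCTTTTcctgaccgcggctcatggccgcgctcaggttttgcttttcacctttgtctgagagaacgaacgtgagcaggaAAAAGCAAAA
In Malat1 66 bases separate the motifs, and in Neat1 72 bases. The Neat1 transcript ends with the A-rich motif, whereas 292 bases of the annotated Malat1 transcript follow it, beginning with the part known as the tRNA-like mascRNA. Of 13918 annotated lncRNA transcripts of at least 400 bases, 44 (0.316%) held AAAAGCAAAA in the last 400 bases. In 2 (0.0144%) TTTCTTTT preceded it in that window, and these were the long transcripts of Malat1 and Neat1. Across all 122312 transcripts of that length, 11 (0.00899%) held the pair. Among transcripts of that length, none of the other 8 lncRNAs held the A-rich motif there.

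The library itself had a summed normalized read count (RC) of 27569507. Of its rows, 15648 had an RC of 10 or more and are called detected. The culture was mixed by its markers. Each of the 5 astrocyte markers and the 5 microglia markers was detected, with RCs of 1850 to 17222 and 984 to 32619. The 4 mesenchymal markers ran from 455 to 95749, the 6 oligodendrocyte lineage markers from 48 to 16349, and the 4 endothelial markers from 0 for Tek to 119 for Kdr. Of 6 neuron markers 4 were detected, Slc17a6 was listed at 0, Syt1 was at 6, and Stmn2 at 3802 held most of their sum of 4038. In such a bulk library, few cells of a type and little RNA per cell cannot be told apart.

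All 10 lncRNAs were detected. Of all rows 67.2% were detected, and of the 1808 rows annotated as lncRNAs 37.7% were, shares that are given as background because the 10 genes were picked as well known. The 10 RCs spanned a 617-fold range, from 39 for Dancr to 24073 for Malat1, with a median of 659.5. The median of detected rows was 469, and that of detected lncRNA rows was 57. Malat1, Neat1, Snhg1, Gas5 and Tug1 lay above the first of these medians. Snhg12, Pvt1 and Miat lay between both medians, and Rmst and Dancr lay below both, so "abundant" described part of the set in this culture. Together the 10 lncRNAs held 0.122% of the summed RC and 19.8% of the RC of all annotated lncRNA rows. The lncRNA total rests on GENCODE types and includes rows that carry the symbol of a protein-coding gene, such as Cct6a at 6300. Over rows that RefSeq also types as lncRNA the share was 23.8%.

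**Figure D1:**
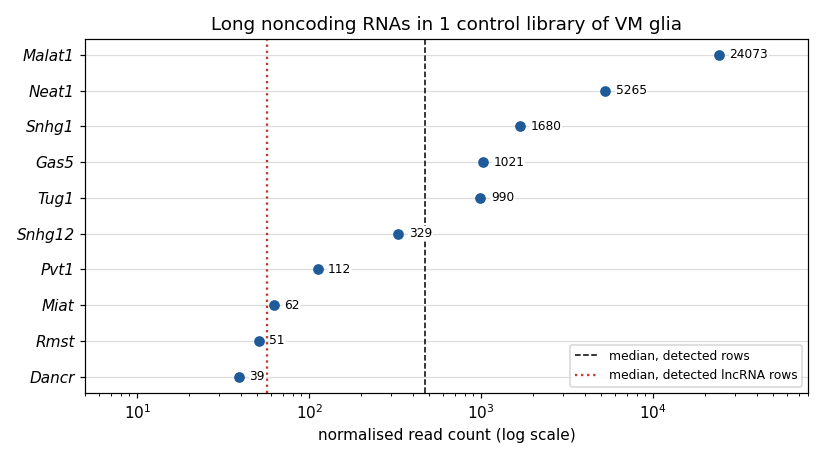
Normalized read count (log axis) of each of the 10 lncRNAs in the control library, 1 point per gene with its value. The dashed line is the median of detected rows (469) and the dotted line that of detected lncRNA rows (57); 5 lncRNAs lie right of the dashed line, and Rmst and Dancr lie left of both.

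RC grows with the length of a transcript, so levels of different genes were compared as RC per kb of exon, taking the union of annotated exons. On this scale 5 of the 10 lncRNAs (Malat1, Snhg1, Gas5, Neat1 and Snhg12) lay above the median detected gene, which was at 102 RC per kb. Of all rows with a length 33.8% lay above that level, and of lncRNA rows 6.69% did. Tug1, at 102 RC per kb, lay just under it, above 49.9% of detected genes. The median of the 10 was 119 RC per kb, against 107 for detected protein-coding rows and 25.9 for detected lncRNA rows. Miat, Rmst, Pvt1 and Dancr lay at 6.67 to 16.6 RC per kb, below the lncRNA median. Tug1 exceeded Dancr, the next in order, 6.12-fold. With only the exons of transcripts that GENCODE pairs with a RefSeq RNA (RefSeq-paired exons), the next in order was Pvt1, and Tug1 exceeded it 2.58-fold.

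**Figure D2:**
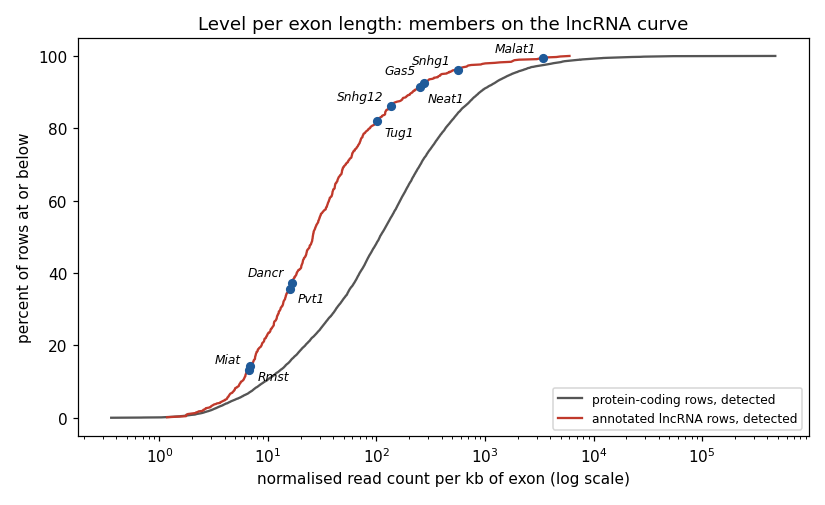
Cumulative percentage of detected protein-coding rows (gray) and annotated lncRNA rows (red) against normalized read count per kb of exon (log axis), with the 10 lncRNAs as blue points on the lncRNA curve. Tug1 and the 5 lncRNAs above it lie in the upper part of the lncRNA curve, from 82.1% upward, and the other 4 lie at 37.0% or lower.

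Malat1 (chromosome 19, 5795690 to 5802672, minus strand) dominated the set. Its RC of 24073 was 873 per 1000000 of the sum, above 99.3% of detected genes, and it was rank 110 of all rows. By RC it was the highest of the 1808 annotated lncRNA rows, and it held 71.6% of the RC of the 10 lncRNAs and 14.2% of that of all lncRNA rows. Per kb it stood at 3447, above 97.2% of detected genes and 6.09-fold above Snhg1, the next of the 10. Malat1 lacks a conventional poly(A) tail, and the library was made with an mRNA kit. How fully its RNA entered the library was not tested, so its ranks, shares and folds describe the RC of this library only. Its long transcript is a single exon of 6983 bases. Exons of Malat1 overlap an unclassified transcript on the opposite strand over 453 bases, which has no row.

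Factors known to act with Malat1 were measured in the same library. Of 14 nuclear speckle and splicing proteins, each was detected, and 13 lay above the median detected gene per kb. They ran from Srpk1, a kinase of SR splicing factors, at an RC of 1021 to the SR protein Srsf5 at 10417. At the Malat1 3′ end, RNase P makes the cut and the tRNA-processing enzyme encoded by Elac2 trims the mascRNA. Elac2 had an RC of 1283, and the RNase P protein genes Rpp30 and Pop1 had 483 and 242. Rpph1, the RNA subunit of RNase P, was at 17. It lacks a poly(A) tail, and the kit was an mRNA kit, so its RC is not set against theirs. Mettl16, which encodes a methyltransferase known to bind the Malat1 triple helix, had an RC of 491. Elac2, at 369 RC per kb, and Rpp30, at 116, lay above the median detected gene. Pop1, at 63.8, and Mettl16, at 35.5, lay below it, and Rpph1 is left out for the reason given. Frmd8, a protein-coding gene beside Neat1 and Malat1, had an RC of 934.

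Neat1 (chromosome 19, 5824708 to 5845478, minus strand) had an RC of 5265, or 191 per 1000000. By RC it was rank 4 among rows that GENCODE types as lncRNA and rank 3 among those that RefSeq also types so. It lay above 94.5% of detected genes. Per kb its place depended on the transcript taken. Neat1 is made as a short polyadenylated form and a long form that share their 5′ part, and only the long form builds paraspeckles. Over the long form of 20771 bases the level was 253 RC per kb, above 70.5% of detected genes, and Malat1 was 13.6-fold higher. Over the short form of 3004 bases it was 1753 RC per kb, and Malat1 was 1.97-fold higher. A single row holds both forms, so the share of each was not measured. The short form is the polyadenylated one, and the library was made with an mRNA kit, but the capture of each form was not tested. At 1753 RC per kb Neat1 would stand above Snhg1 at 566 and Gas5 at 272, both by the union of exons. It would stand below Snhg1 at 2777 by RefSeq-paired exons. The place of Neat1 among the 10 thus depends on its form and on the exons counted for the others.

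Of 14 paraspeckle proteins, each was detected, and 12 lay above the median detected gene per kb. The highest RC was 14860, for Hnrnpk, an RNA-binding protein that takes part in the choice between both Neat1 forms. The lowest was 230, for Rbm14. Among the core proteins that bind Neat1 directly, Nono had 11183, Sfpq 10309 and Pspc1 1929, 3 genes named after their values were seen. Per kb, Nono at 2556 and Sfpq at 2174 lay above both Neat1 values, and Pspc1 at 336 lay between them.

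Snhg1, Gas5, Snhg12 and Dancr are the snoRNA hosts of the set. Their RCs were 1680, 1021, 329 and 39. Snhg1 (chromosome 19, 8723475 to 8726443, plus strand) was number 2 of the 10 per kb, at 566, above 84.4% of detected genes. Gas5 (chromosome 1, 161034422 to 161038539, plus strand) was number 3, at 272, above 72.0%. Snhg12 (chromosome 4, 132308623 to 132311024, plus strand) was number 5, at 137, above 56.6%. Dancr (chromosome 5, 74093060 to 74095406, plus strand), known for holding progenitor cells back from differentiation, was number 7, at 16.6, above 17.1%. Gas5 exceeded Neat1, taken over its long form, by 1.07-fold per kb and Dancr exceeded Pvt1 by 1.04-fold, steps for which no replicate spread exists. With RefSeq-paired exons the first was 1.58-fold and the second turned, since Pvt1 at 56.6 stood 1.51-fold above Dancr at 37.4.

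The levels of the hosts also turned on which exons are counted, since many of their annotated transcripts keep introns. With exons of the GENCODE transcripts that are paired with a RefSeq RNA, Snhg1 shrinks from 2969 to 605 bases and its level went from 566 to 2777 RC per kb, close to Malat1 at 3447. Snhg12 shrinks from 2402 to 606 bases and moved from 137 to 543 RC per kb, from place 5 to place 3. Gas5 has 25 annotated transcripts of 346 to 2556 bases, and its level lay between 272 RC per kb for the union of exons and 2951 for the shortest transcript. On this second scale 5 of the 10 lncRNAs again lay above the median detected gene, then at 147 RC per kb, with Tug1 just under it at 146.

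**Figure D3:**
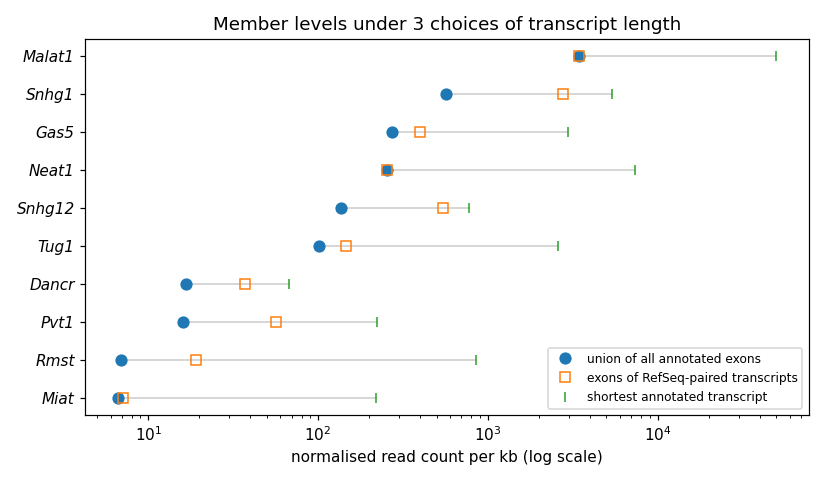
Normalized read count per kb (log axis) of each lncRNA when divided by the union of annotated exons (filled circles), by exons of RefSeq-paired transcripts (open squares) or by the shortest annotated transcript (ticks). Malat1 does not move between the first 2 choices, Snhg1 moves from 566 to 2777, and the 4 lowest genes of the union scale are also the 4 lowest of the RefSeq scale.

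The snoRNAs inside the hosts were looked up next. GENCODE places 10 snoRNA genes inside Gas5, 8 inside Snhg1, 5 inside Snhg12 and 1 inside Dancr, where Snora16a counts as 2 entries at the same place in Snhg12. Those with a row of their own were Snord47 in Gas5, Snord22 in Snhg1, Snora16a, Snora44, Snora61 and Snord99 in Snhg12, and Snora26 in Dancr. Representatives of both snoRNA classes are printed from the same GENCODE release, 5′ to 3′ on the plus strand. In the box C/D snoRNAs (Snord genes), which guide 2′-O-methylation, capitals mark the first TGATGA (box C) and the last CTGA (box D). In the box H/ACA snoRNAs (Snora genes), which guide pseudouridylation, they mark the last ACA.
Snord47 (chr1:161038082-161038158): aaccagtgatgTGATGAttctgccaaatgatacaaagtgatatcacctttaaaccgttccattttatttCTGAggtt
Snord22 (chr19:8725866-8725991): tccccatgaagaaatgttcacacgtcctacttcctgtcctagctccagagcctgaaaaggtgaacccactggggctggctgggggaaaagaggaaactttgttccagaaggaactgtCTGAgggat
Snord99 (chr4:132310691-132310764): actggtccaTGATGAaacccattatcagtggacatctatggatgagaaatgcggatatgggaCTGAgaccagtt
Snora16a (chr4:132309465-132309600): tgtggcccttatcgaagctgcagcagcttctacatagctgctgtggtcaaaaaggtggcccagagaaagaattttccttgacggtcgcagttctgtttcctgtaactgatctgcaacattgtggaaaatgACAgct
Snora26 (chr5:74093530-74093650): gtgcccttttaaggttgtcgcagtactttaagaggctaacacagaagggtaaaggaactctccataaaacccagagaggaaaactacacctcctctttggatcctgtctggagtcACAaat
The letters TGATGA are not in Snord22. In Snora16a and Snora26 the ACA stands 3 bases from the 3′ end. Of the Snora genes not printed, Snora61 also has its last ACA 3 bases from the end, whereas in Snora44 the last ACA stands 34 bases from it.

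Each of the 7 snoRNA rows had a lower RC than its host. Snord22 was at 230 inside Snhg1 at 1680, and Snord47 was at 174 inside Gas5 at 1021. In Snhg12, with an RC of 329, Snora16a was at 59, Snora44 at 54, Snord99 at 29 and Snora61 at 26, which sum to 168. Snora26 was at 9, under the detection minimum, inside Dancr at 39. Per kb the direction turned with the host length taken, except for Snora26. That row stood at 74.4 RC per kb, above Dancr at 16.6 by the union of exons. It also stood above the host's 37.4 by RefSeq-paired exons and 67.8 by its shortest transcript. Snord47 stood at 2260 RC, above Gas5 at 272 by the union of exons and 399 by RefSeq-paired exons, but below the 2951 of its shortest transcript. Snord22 at 1825 stood above Snhg1 at 566 by the union and below it at 2777 by RefSeq-paired exons. The 4 in Snhg12 stood at 200 to 434 RC per kb, above the host at 137 by the union and below it at 543 by RefSeq-paired exons. Snora26 overlaps a RefSeq-paired exon of its host, and the other 6 do not. These RCs come from a library made with an mRNA kit, and reads of mature snoRNAs cannot be told apart from reads of unspliced host RNA.

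**Figure D4:**
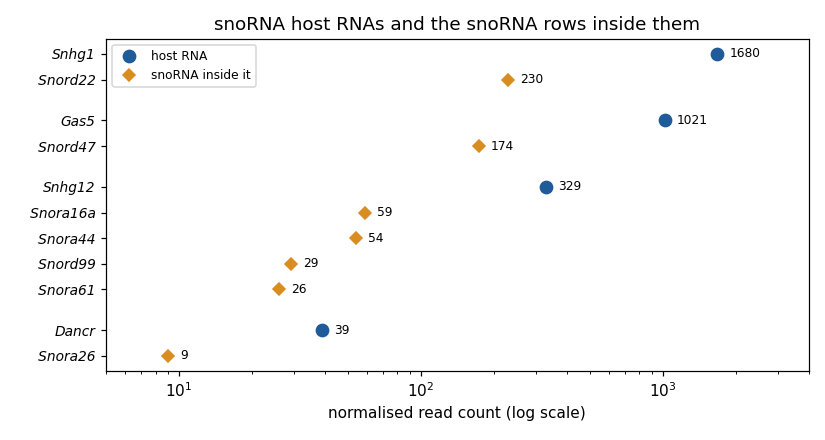
Normalized read count (log axis) of the 4 snoRNA host RNAs (blue circles) and of the 7 snoRNA rows inside them (orange diamonds), each with its value. In each host the snoRNA rows lie to the left of the host, from 9 for Snora26 to 230 for Snord22.

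Other snoRNA hosts, from a list of 15 genes, had 11 rows, and each was detected, with a median RC of 193. Snhg11 was highest at 1462 and Snhg9 lowest at 22. Per kb of the union of exons, the 9 of these with an annotated length ran from 27.4 for Snhg17 to 295 for Snhg5, 2 genes named after their values were seen. On that scale Snhg1 at 566 lay above and Dancr at 16.6 below each of the 9. With RefSeq-paired exons Snhg1 stood at 2777 and Dancr at 37.4, and the 9 are not given on that scale. Of the box C/D core proteins, Nop58 had an RC of 4059, Nop56 2744 and the methyltransferase gene Fbl 2288. Of the box H/ACA core proteins, Nhp2 had 1447, Nop10 933, the pseudouridine synthase gene Dkc1 610 and Gar1 555. All 7 lay above the median detected gene per kb. Of 8 nonsense-mediated decay factors, 7 lay above it, and RCs ran from 1113 for the endonuclease gene Smg6 to 2401 for the helicase gene Upf1.

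Start sites of snoRNA hosts are shown because Gas5 is known for a 5′ terminal oligopyrimidine (TOP) start, the sequence by which ribosomal protein messages respond to growth signals. The windows are RefSeq sequence on GRCm38.p6, plus strand, from 10 bases before to 30 from the annotated start onward. Capitals mark a C followed by at least 4 pyrimidines that begins within 5 bases of the start, searched on the transcript strand.
Gas5 (chr1:161035156-161035195): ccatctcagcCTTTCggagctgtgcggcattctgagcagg
Snhg12 (chr4:132308668-132308707): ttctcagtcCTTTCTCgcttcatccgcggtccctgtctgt
Snhg1 (chr19:8723477-8723516): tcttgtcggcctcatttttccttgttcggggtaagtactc
Dancr (chr5:74093050-74093089): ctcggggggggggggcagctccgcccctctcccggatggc
RefSeq windows were found for 7 of the 10 lncRNAs (Malat1, Miat, Gas5, Snhg1, Snhg12, Dancr and Tug1), and 3 of them (Gas5, Snhg12 and Miat) held such a start. For Gas5 it was in 1 of 2 annotated start windows. Of all 32851 promoter windows 18.3% held one, and of 73 windows of ribosomal protein genes 42.5% did.

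The glucocorticoid receptor gene Nr3c1, the partner of Gas5 closest to the question of the study, had an RC of 908, or 118 RC per kb. Gas5 stood at 272 per kb in the same library, with the limits on its length given above. Serpinc1, a coding gene beside Gas5, had an RC of 28. Snhg1 begins 105 bases from Slc3a2, which is read from the opposite strand, encodes the heavy chain of an amino acid transporter and had an RC of 7894. Wdr74 on its other side had 1040. Next to Snhg12, Trnau1ap had 758 and Rab42 had 2, and next to Dancr, Usp46 had 236 and Rasl11b had 108.

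Tug1 (chromosome 11, 3639785 to 3649673, minus strand), first found as a taurine-responsive RNA of the retina and known to bind the chromatin repressor PRC2, had an RC of 990. It was above 67.7% of detected genes by RC and, being 9734 bases of exon in length, above 49.9% per kb. Its exons overlap those of Morc2a on the opposite strand over 483 bases, and Morc2a had an RC of 818. The strand setting of the counting is unknown, so reads in that overlap cannot be told apart. The nearest coding genes without overlap were Smtn at 703 and Osbp2 at 10. The PRC2 genes were each detected, with Rbbp7 at 6178, Rbbp4 at 4554, Suz12 at 1131, the methyltransferase genes Ezh2 at 1130 and Ezh1 at 626, and Eed at 986. Of these 6, 5 lay above the median detected gene per kb, Ezh1 being the exception.

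Pvt1 (chromosome 15, 62037986 to 62378096, plus strand) spans 340111 bases beside Myc and is known to raise MYC protein. Its RC was 112, above 24.8% of detected genes, and its level was 16.0 RC per kb, above 16.5%. Myc, 47611 bases away on the same strand, had an RC of 1025 and stood at 377 RC per kb, above 78.0% of detected genes. By RC and by the union of exons both neighbors were thus far apart in level. With RefSeq-paired exons Pvt1 stood higher, at 56.6 RC per kb, above 31.0% of detected genes, and Myc is not given on that scale. Exons of Pvt1 overlap the processed pseudogene H2afy3 on the opposite strand over 109 bases, and that row had an RC of 176. Gsdmc, the nearest coding gene on the other side, was at 7.

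Miat and Rmst, both known from neurons and neural progenitors, were near the bottom of the set. Miat (chromosome 5, 112213228 to 112229395, minus strand), also called Gomafu, had an RC of 62 and was last per kb at 6.67, above 7.16% of detected genes. Its exons overlap Gm26953 on the opposite strand over 2260 bases, and Gm26953 has no row. Miat is known to bind the splicing factor SF1 through repeats of the letters TACTAAC, the branch point sequence of introns. They are shown in capitals in the stretch of the 9163-base transcript where 3 lie closest (GRCm38, chr5:112216754-112216810, minus strand).
Miat: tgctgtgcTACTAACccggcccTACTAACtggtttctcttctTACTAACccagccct
That transcript held 6 copies on its own strand. Neat1 held 1 in its long transcript, and the longest transcripts of the other 8 lncRNAs held none. Among the longest transcripts of 10155 lncRNA genes, 374 (3.68%) held any copy and 2 (0.0197%) held 6 or more, Miat included. The gene of its partner, Sf1, had an RC of 8042 and stood at 1295 RC per kb. Celf3, a neuronal splicing regulator known to bind the same RNA, was at 19. The nearest coding gene with a row, Cryba4, was also at 19.

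Rmst (chromosome 10, 92071037 to 92165170, minus strand), which marks the developing midbrain and binds SOX2, had an RC of 51 and stood at 6.87 RC per kb, above 7.47% of detected genes. It exceeded Miat per kb by 1.03-fold, a step without a replicate spread. With RefSeq-paired exons Rmst stood at 19.0 RC per kb, above 15.3% of detected genes, and exceeded Miat at 7.08 by 2.69-fold. Its exons overlap Gm26700 on the opposite strand over 1955 bases, which has no row. The partner Sox2, a stem cell factor also made in astrocytes, had an RC of 1268 and stood at 616 RC per kb, and Hnrnpa2b1, which encodes a further Rmst-binding protein, had an RC of 12744. The 7 VM and floor plate factors were each detected, and of these only Shh, at 112 RC per kb, lay above the median detected gene. Shh had an RC of 320, En1 259, En2 199, Otx2 100, Lmx1a 46, Lmx1b 39 and Foxa2 20, and their summed RC was 983. The neuron markers, with RCs from 0 to 3802, had a median of 53 and a median of 8.05 RC per kb. The endothelial markers had medians of 38 and 7.76 RC per kb. Both lists thus had medians near the values of Miat and Rmst, so this nearness does not single out a cell type. The part of residual neurons or floor plate cells in the Miat and Rmst values was not tested. Nearest to Rmst, Tmpo had an RC of 2323 and Nedd1 had 276.

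**Figure D5:**
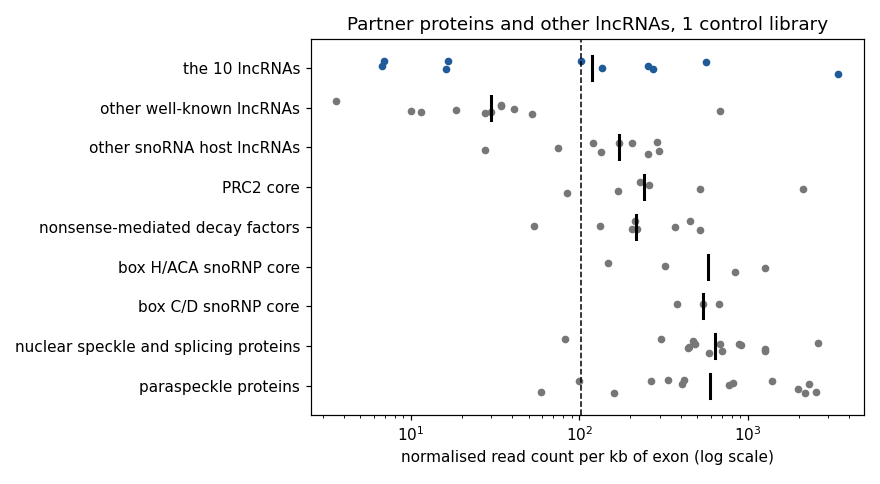
Normalized read count per kb of exon (log axis) of the 10 lncRNAs (blue) and of the genes of 8 lists (gray), 1 point per gene, with a black bar at each list's median and a dashed line at the median detected gene (102). The 6 plotted lists of partner proteins have medians between 216 and 638, against 119 for the 10 lncRNAs and 29.8 for the other well-known lncRNAs.

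Against other lncRNAs, 6 of the 10 lay above the median of detected lncRNA rows per kb. Of a list of other well-known lncRNAs, 11 had rows, each detected, with a median RC of 152 and a median of 29.8 RC per kb. The highest was 2900097C17Rik, now Norad, which holds PUMILIO proteins in the cytoplasm, at 3376, and the lowest was Hotairm1 at 19. The highest annotated lncRNA rows outside the 10 genes were Gm10791 at 8138, Cct6a at 6300 and 4930473A02Rik at 4539. Gm10791 lies within App on the opposite strand, and App had an RC of 31822. The exons of 4930473A02Rik overlap Ptpra, at 14588, on the opposite strand, and Cct6a carries the symbol of a protein-coding chaperonin gene. By RC Malat1 exceeded each of these, but per kb Gm10791 at 4929 stood above Malat1 at 3447, while 4930473A02Rik at 3221 and Cct6a at 1740 stood below it.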

How the data were processed

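RNA-seq of 1 control library of mouse VM glia was analyzed. According to the study's methods, trimmed reads were mapped to GRCm38/mm10 with STAR and counted on exons of RefSeq genes with HTSeq-count, whereas the submitters' processing notes name TopHat and edgeR. The deposited values, called normalized read counts by the authors, hold no fractions and were treated as a score on the scale of reads. Their normalization, strand setting, handling of multi-mapped reads and sequencing depth were not stated, so no interval or detection floor was computed, and another normalization would change values per 1000000. Rows were matched by symbol to GENCODE release M21 (22860 of 23282 rows, 98.2%), an annotation that differs from the RefSeq release used for counting. It supplied coordinates, gene types and exon lengths. A row was called detected at 10 or more.

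The members and lists were chosen with earlier results of these data known. Each member was named, as were lists of up to 6 genes in full (cell type markers mostly as ranges), the highest and lowest member of longer lists, genes listed at 0, the nearest coding genes with a row and the 3 highest other lncRNA rows. Some genes that this rule selects are left out. Length and percentile steps were tested on simulated data. Alternatives were other minima, lengths, reference genes, sums and promoter windows. Python 3.11.15, numpy 2.4.6, pandas 2.3.3 and matplotlib 3.10.9 were used.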

Additional observations from a re-analysis of the deposited data

How the results depend on the processing

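With a detection minimum of 1 all 10 lncRNAs were detected, and with one of 100 there were 7. At the minimum of 1, 5075 of all 23282 rows and 719 of the 1808 annotated lncRNA rows fell short. Background shares are not given for the minimum of 100 or for the per-kb alternatives below, so those counts describe the 10 lncRNAs only. The number above the median detected gene per kb was 5 by the union of exons and ran from 4 to 7 over 7 alternatives. It was 6 with the longest transcript, 7 with the shortest, 5 against protein-coding rows, 6 against lncRNA rows, and, in alternatives chosen after seeing the data, 5 with RefSeq-paired transcripts, 5 with the short Neat1 transcript and 4 of the 4 members without an opposite-strand overlap. Members without any exon overlap could not be set apart, because each of the 10 overlaps at least a small annotated RNA. Values per 1000000 rise 1.02-fold without Rn45s and 1.16-fold without the 10 highest rows. The share of the lncRNA total was 28.5% without rows that overlap a protein-coding gene, which also leaves out Tug1, and 23.8% for rows that RefSeq also types as lncRNA (added after seeing the data). A pyrimidine start was found in 5 of 7 genes within 15 bases, where 40.9% of all windows held one. No paired analysis was possible because 1 library in 1 group was analyzed. The lack of a replicate limits each value to this library.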
